A study of Mus musculus with 4 samples.

Results

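The genes described are 10 mediators of inflammation, the cytokine genes Il1a, Il1b, Il1rn, Il18, Tnf, Il6, Tgfb1 and Csf1 and the adhesion molecule genes Icam1 and Vcam1. They were chosen by name, with earlier results of these data known, out of 20886 genes that could be named on the array. The 10 genes were read by 13 probes whose accession maps to one of them. The data are liver RNA profiles of male mice on 1-colour Agilent oligonucleotide arrays, with 1 array for each of 4 groups. Genotype was wild type (WT) or catalase knockout (KO), and food was a normal diet (ND, with 18% of its calories as fat) or a high-fat diet (HFD, with 60.3%), so the groups are WT ND, WT HFD, KO ND and KO HFD. All mice were on their diet for 11 weeks, from 29 to 40 weeks of age. Catalase is the peroxisomal enzyme that degrades hydrogen peroxide. The labels do not say how the knockout was made, on which strain, or whether an array carries 1 animal or a pool. Since each group has 1 array, no difference has a replicate check and no p-value is given.

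Inflammatory cytokines are secreted proteins that recruit and activate leukocytes. In liver the resident macrophages, the Kupffer cells, are a main source of interleukin-1 beta and tumour necrosis factor, whose signals activate the transcription factor NF-kappaB. Adhesion molecules on endothelial cells then hold passing leukocytes through integrins, while transforming growth factor beta 1 drives matrix production and colony-stimulating factor 1 sustains macrophages. Fatty liver disease is known for a rise of several of these mediators as steatosis turns into steatohepatitis.

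The values below are scaled signals, the scanner's processed intensity of a probe multiplied so that all 4 arrays have the same 75th percentile. The error after ± is that of the scanner's error model, which covers spot measurement and not the spread between animals. A signal can be compared between arrays for 1 probe, but not between probes. A gene was called higher or lower at 2-fold or more with its probe well above background, by the scanner's own flag, on both arrays. Where only 1 array passed that flag, the dim array was set to its lowest passing signal or to the probe's own value, whichever was higher, and the size is a bound. The words rose and fell are kept for genes that met this rule.

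All 4 arrays lay on 1 slide, and 23757 to 25184 of 39429 probes were well above background on each. Cat, read by its brighter probe, gave 30992 for WT ND, 28161 for WT HFD, 2290 for KO ND and 2010 for KO HFD, a log2 difference between genotypes of -3.76 ± 0.20 on ND and -3.81 ± 0.20 on HFD. The labels do not place the probe inside or outside the deleted part. The hepatocyte markers Alb, Apoa1, Ttr and 7 others were well above background on all 4 arrays. Of the 10 genes, 7 were well above background on all 4 arrays, namely Il1b, Il1rn, Il18, Tgfb1, Csf1, Icam1 and Vcam1. Il6 passed on 3 arrays, and Il1a and Tnf only on the KO HFD array, where a gene that passes nowhere else has to be higher.

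The DNA upstream of 3 of these genes is printed, since among those measured on all arrays these 3 had the largest differences between the diet effects of the 2 genotypes. The 250 bases before the annotated start were taken from RefSeq on build GRCm38.p6, 5′ to 3′ on the gene's strand, and were present for 9 of the 10 genes. Capitals mark GGANNTTCC, which is in the core of many NF-kappaB sites and also takes in other factors' sites, in the first 2, and TATAAA in the last:
Icam1, chr9:21015690-21015939, plus strand: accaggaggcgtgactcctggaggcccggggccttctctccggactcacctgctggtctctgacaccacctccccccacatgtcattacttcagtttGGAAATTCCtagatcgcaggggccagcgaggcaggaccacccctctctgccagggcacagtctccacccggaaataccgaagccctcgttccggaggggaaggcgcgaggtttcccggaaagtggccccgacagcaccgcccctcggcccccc
Csf1, chr3:107760470-107760719, minus strand: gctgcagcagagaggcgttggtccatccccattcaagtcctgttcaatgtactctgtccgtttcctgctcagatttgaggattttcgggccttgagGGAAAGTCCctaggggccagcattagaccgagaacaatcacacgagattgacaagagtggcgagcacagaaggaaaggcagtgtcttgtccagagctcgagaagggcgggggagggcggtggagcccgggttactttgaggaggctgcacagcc
Il1b, chr2:129371140-129371389, minus strand: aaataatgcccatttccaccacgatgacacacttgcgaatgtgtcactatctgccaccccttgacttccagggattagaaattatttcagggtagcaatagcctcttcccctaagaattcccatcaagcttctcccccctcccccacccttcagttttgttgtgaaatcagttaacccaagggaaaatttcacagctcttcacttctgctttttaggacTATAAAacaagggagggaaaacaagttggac
On either strand, GGANNTTCC was present in 4 of the 11 windows of these 9 genes, each in a different gene, against 3.59% of 32851 windows of the same length. It read GGAAATTCC on both strands in Icam1 at 153 to 145 bases before the start (-153 to -145), GGAAAGTCC in Csf1 from -154 (the match lies on the opposite strand), GGAGATTCC in Tnf from -212 and GGATTTTCC in Il6 from -43. TATAAA was present from -32 in Il1a, -31 in Il1b and -29 in Tnf, and on the opposite strand from -175 in Il18, against 12.4% of all windows. TGANTCA, the core of AP-1 sites, was present in Il1a, Il6 and 1 of 3 windows of Il1rn, against 6.75%. A match describes letters and was not tested as a binding site.

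Among the interleukin-1 genes, Il1b, which encodes the secreted pyrogen interleukin-1 beta, was highest on the KO HFD array. Its scaled signal was 165 ± 5.76 for WT ND, 216 ± 7.08 for WT HFD, 132 ± 4.74 for KO ND and 389 ± 13.1 for KO HFD. On HFD Il1b rose in KO by 1.56 ± 0.07 on the log2 scale, or 2.94-fold. In WT it differed by 0.39 ± 0.07 and was not called. The probe has 10 spots on each array, of which 9 or 10 were used. The lowest of 9 spots on the KO HFD array, 364, lay above the highest of 10 on the WT HFD array, 232, so the gap is larger than the spread between spots of 1 array. In bulk liver, more cells of a type and more RNA per cell cannot be told apart. The 4 arrays did not overlap in their spots for this gene, and the order from lowest to highest was KO ND, WT ND, WT HFD and KO HFD.

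Il1a encodes interleukin-1 alpha, an alarmin released by damaged cells. It read 17.3 ± 4.91, 19.1 ± 5.39 and 15.9 ± 5.03 on the WT ND, WT HFD and KO ND arrays, all not well above background, and 46.6 ± 6.12 on the KO HFD array. The dim 3 arrays could not be ordered, as their gaps were within the scanner error. It was at least 1.98-fold higher between diets in KO and at least 1.88-fold higher between genotypes on HFD, so neither reached the 2-fold rule.

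Il1rn encodes the interleukin-1 receptor antagonist, which blocks the receptor without signalling. It read 30.9 ± 5.97 for WT ND, 53.9 ± 7.72 for WT HFD, 34.0 ± 6.15 for KO ND and 52.6 ± 6.74 for KO HFD. Its diet differences were 0.80 ± 0.35 in WT and 0.63 ± 0.32 in KO on the log2 scale, and no call was made. Unlike Il1b, it had nearly the same value in both genotypes on HFD, with a difference of -0.04 ± 0.28. Whether the difference between these 2 genes holds beyond these arrays was not tested.

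Il18 encodes interleukin-18, a cytokine that inflammasome caspases cleave to its active form. It read 3060.3 ± 306 and 2553 ± 255 for WT ND and WT HFD, and 3102 ± 310.2 and 2038 ± 204 for KO ND and KO HFD. It was the only one of the 7 genes measured on all arrays that was lower on HFD in KO, at -0.61 ± 0.20, and it was not called in any comparison. Its wild-type diet difference was -0.26 ± 0.20. Neighbouring arrays in its order differed by less than 2 scanner errors.

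**Figure D1:**
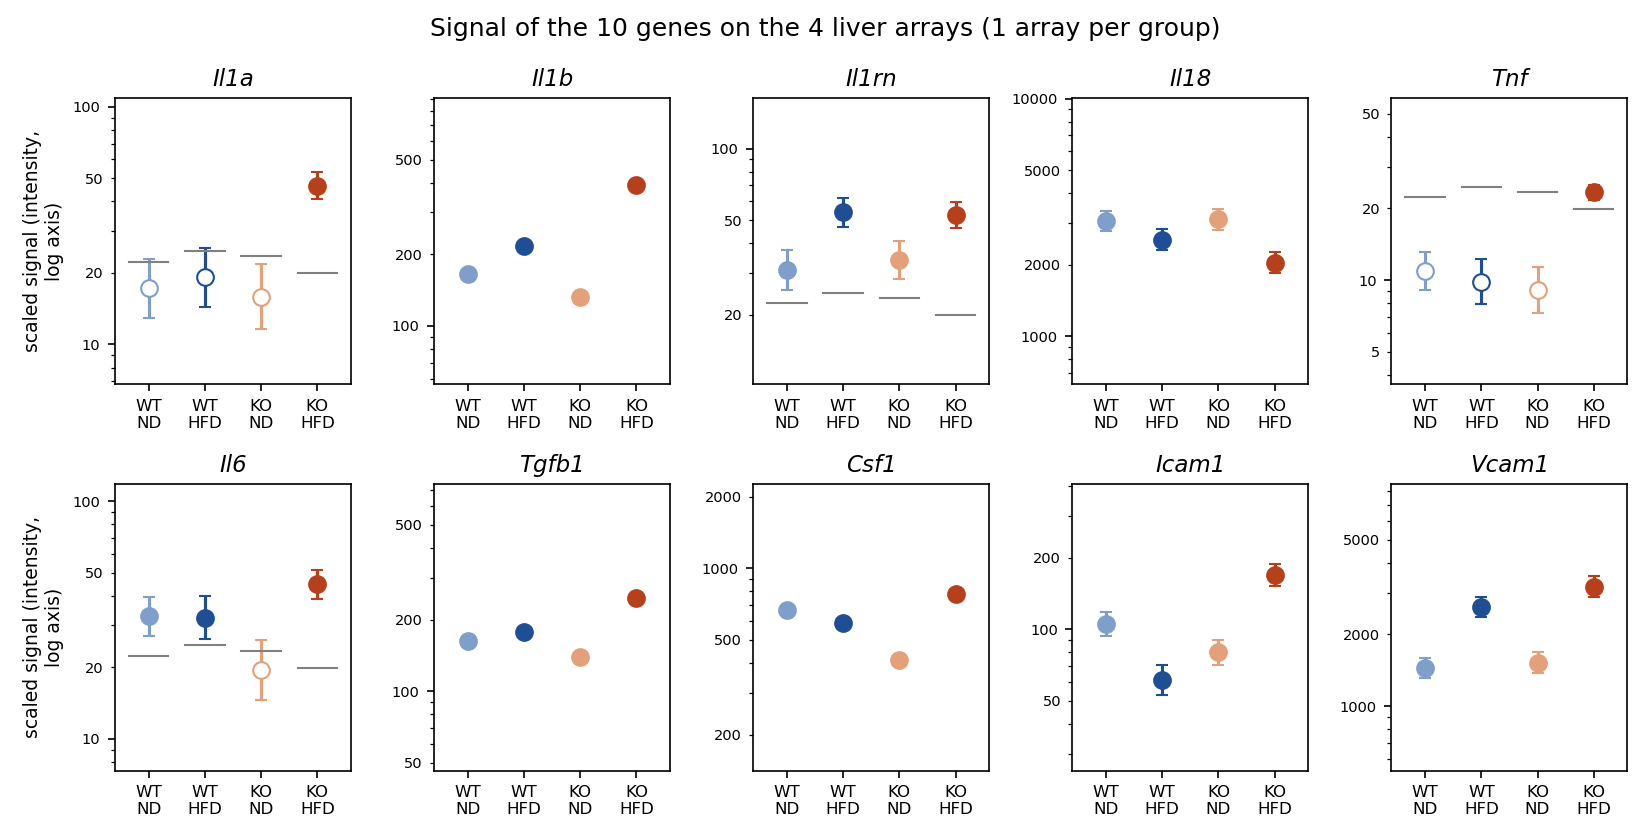
Scaled signal (intensity, log axis with a 16-fold range in each panel) of the brightest probe of each gene on the 4 arrays, 1 array per group. Bars are the scanner error, filled points are well above background, open points are not, and grey lines give the lowest passing signal of each array. Il1b, Tgfb1, Csf1, Icam1 and Vcam1 are highest on the KO HFD array, Il18 is lowest there, and Il1a and Tnf pass background only there.

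Tnf encodes tumour necrosis factor, an early trigger of the cytokine cascade. It stayed near background, at 10.9 ± 1.97 for WT ND, 9.86 ± 2.18 for WT HFD, 9.09 ± 2.00 for KO ND and 23.4 ± 1.70 for KO HFD. On the KO HFD array 5 of 9 spots used were well above background, and on the other 3 arrays none of the 9 or 10 was. The KO HFD value lay below the lowest passing signal of the KO ND array, 23.5, and below that of the WT HFD array, 24.7, so no fold is given for Tnf in any of the 4 comparisons. Its spots used ran from 17.9 to 27.4 for KO HFD and from 5.51 to 31.5 for WT HFD, where the next highest was 15.9. They ran from 5.34 to 20.8 for KO ND and from 8.04 to 14.7 for WT ND. The KO HFD range thus overlapped with those of WT HFD and KO ND and not with that of WT ND.

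Il6 encodes interleukin-6, the main inducer of acute phase proteins in hepatocytes. It read 32.7 ± 6.29, 32.4 ± 6.60 and 44.6 ± 6.24 on the WT ND, WT HFD and KO HFD arrays, and 19.4 ± 5.67, not well above background, on the KO ND array. Between diets in KO the bound was at least 1.90-fold, short of the rule. Every neighbouring pair of arrays in its order differed by less than 2 scanner errors, so neighbours could not be ordered. The ends, KO ND and KO HFD, differed by 1.20 ± 0.47, more than 2 scanner errors, though the KO ND value had not passed background.

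Among the growth factors, Tgfb1, which encodes transforming growth factor beta 1, read 162 ± 5.44 for WT ND, 178 ± 5.96 for WT HFD, 139 ± 4.77 for KO ND and 246 ± 7.94 for KO HFD. The diet difference was 0.82 ± 0.07 in KO, or 1.77-fold, and 0.13 ± 0.07 in WT, and neither was called. Its 10 spots per array ran from 219 to 294 on the KO HFD array and from 166 to 192 on the WT HFD array. Those ranges do not overlap, whereas the spots of the 2 wild-type arrays do.

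Csf1 encodes colony-stimulating factor 1, the ligand of the macrophage receptor Csf1r. Its probe with 10 spots read 669 ± 21.2 for WT ND, 587 ± 18.6 for WT HFD, 410.3 ± 13.1 for KO ND and 778 ± 26.0 for KO HFD. The diet difference was 0.92 ± 0.07 in KO, or 1.90-fold, and -0.19 ± 0.06 in WT, and between genotypes on ND it was -0.70 ± 0.06. No comparison reached 2-fold. On this probe Csf1 was lowest for KO ND and highest for KO HFD.

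Another 2 Csf1 probes, both of 1 spot and named by a different transcript accession, were higher on HFD in KO by similar sizes, 0.79 ± 0.22 and 0.76 ± 0.21. They disagreed between genotypes on ND, at -1.06 ± 0.22 on one and -0.03 ± 0.22 on the other. The first read 223, 139, 107 and 185 in the order WT ND, WT HFD, KO ND and KO HFD, and the second 123, 120, 120 and 204. KO ND was thus lowest on 2 of the 3 probes and KO HFD highest on 2 of the 3, while WT ND was highest on the remaining one.

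**Figure D2:**
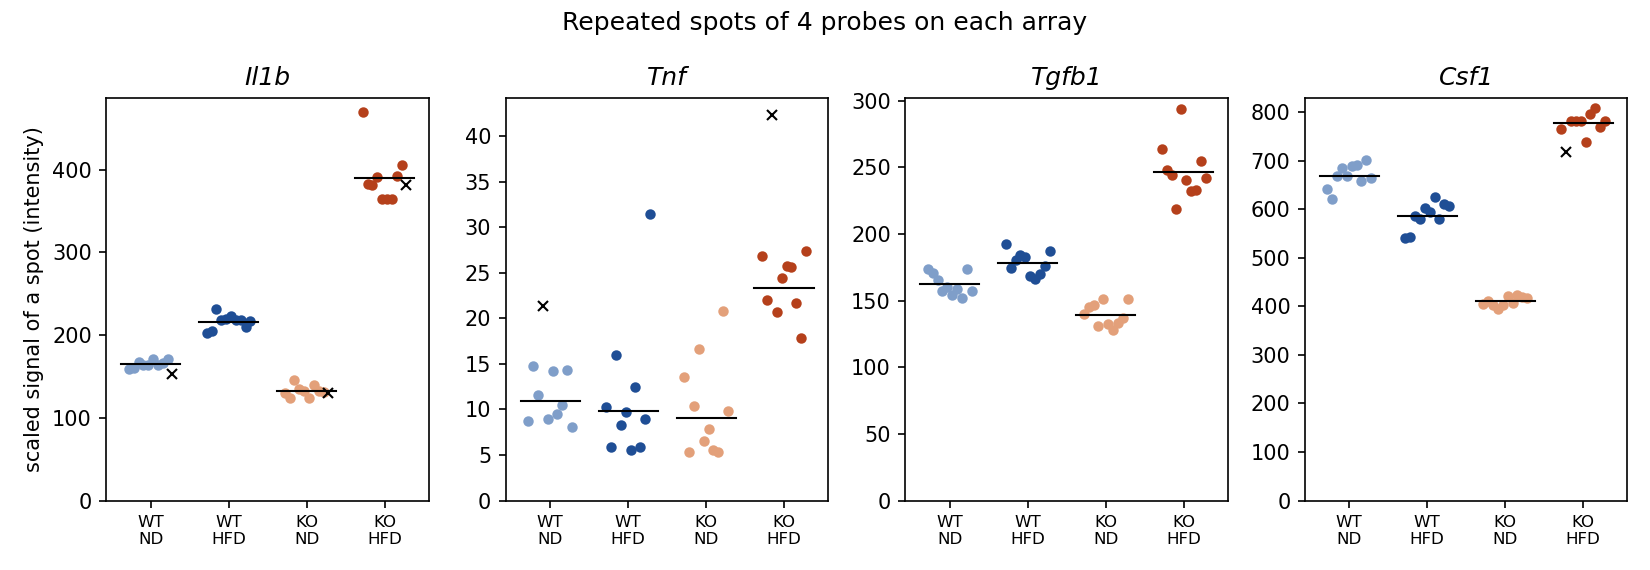
Scaled signal (intensity, linear axis from 0) of the repeated spots of the Il1b, Tnf, Tgfb1 and Csf1 probes on each array, with the geometric mean of the spots used as a line and spots left out for an outlier flag as crosses. Spots are technical repeats within 1 array. Those of Il1b on the KO HFD array lie above those of the other arrays. Among spots used, those of Tnf on the KO HFD array overlap in range with WT HFD and KO ND but not with WT ND.

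Icam1 encodes the adhesion molecule that beta 2 integrins of leukocytes bind. It read 105 ± 12.1 for WT ND, 61.5 ± 8.96 for WT HFD, 80.0 ± 9.96 for KO ND and 169 ± 17.6 for KO HFD. On HFD it rose in KO by 1.08 ± 0.23, or 2.11-fold, and in WT it differed by -0.77 ± 0.27. Between genotypes on HFD it rose by 1.46 ± 0.26, or 2.75-fold. The KO HFD array stood above the other 3 by more than 2 scanner errors, while those 3 could not be ordered from neighbour to neighbour. Icam1 was read by 1 probe of 1 spot, and the diet call in KO was lost with each of 4 other settings, at 0.98 for scaling to the median, 0.98 for quantile, 0.97 for cyclic loess normalization and 0.67 with normexp background correction. The genotype call on HFD was lost with normexp, at 0.80.

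Vcam1 encodes the adhesion molecule that integrin alpha 4 beta 1 binds, and liver endothelial cells carry it. Its brighter probe read 1445 ± 145 for WT ND, 2614 ± 261 for WT HFD, 1521 ± 152 for KO ND and 3177 ± 318 for KO HFD. High values thus went with HFD in both genotypes, and within a diet the genotypes differed by 0.07 ± 0.20 and 0.28 ± 0.20. Vcam1 rose on HFD in KO by 1.06 ± 0.20, or 2.09-fold, and was at 0.86 ± 0.20 in WT, under the rule. Its dimmer probe gave 0.97 ± 0.24 and 0.78 ± 0.25. The call was lost under median scaling, at 0.96.

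Since the 10 genes were chosen with earlier results of these data known, the shares given here describe and do not test. Set against all genes, the count in KO was 3 of 10 higher on HFD and 0 lower, where 4.22% of 14905 genes were called higher and 1.64% lower. In WT 8 of the 10 could be tested for diet, as Il1a and Tnf were not well above background on either array. Of these 8, 0 were called, where 1.78% of genes tested were higher and 2.31% lower. Between genotypes on ND 0 of the same 8 were called, where 1.40% were higher and 2.50% lower. On HFD 1 of 10 was called, Icam1, where 2.51% were higher and 1.59% lower. Among genes measured on both arrays, the median log2 difference for diet in KO was 0.92 over 7 of these genes and -0.07 over 13879 genes, and in WT 0.06 over 8 and -0.02 over 13733.

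Over all genes, diet in KO gave 629 higher and 245 lower, and under median scaling 510 and 323. Genotype on ND gave 206 higher and 368 lower, and under median scaling 264 and 285.

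An alternative rule of 1.5-fold called 8 of 10 higher on HFD in KO, all but Il18 and Tnf, against 9.52% of all genes. It called 1 lower, Il18, against 5.68%. Of the 8, Il1a and Il6 were called by bounds, as KO ND did not pass background, so their direction was fixed. In WT the 1.5-fold rule called Il1rn and Vcam1 higher against 4.45% and Icam1 lower against 6.51%. On ND 0 of the 8 genes tested there were higher in KO against 3.89%, and Csf1 was lower against 6.65%. On HFD Il1a, Il1b and Icam1 were higher in KO against 7.34%, and 0 were lower against 4.36%. There too Il1a was called by a bound, with its direction fixed.

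**Figure D3:**
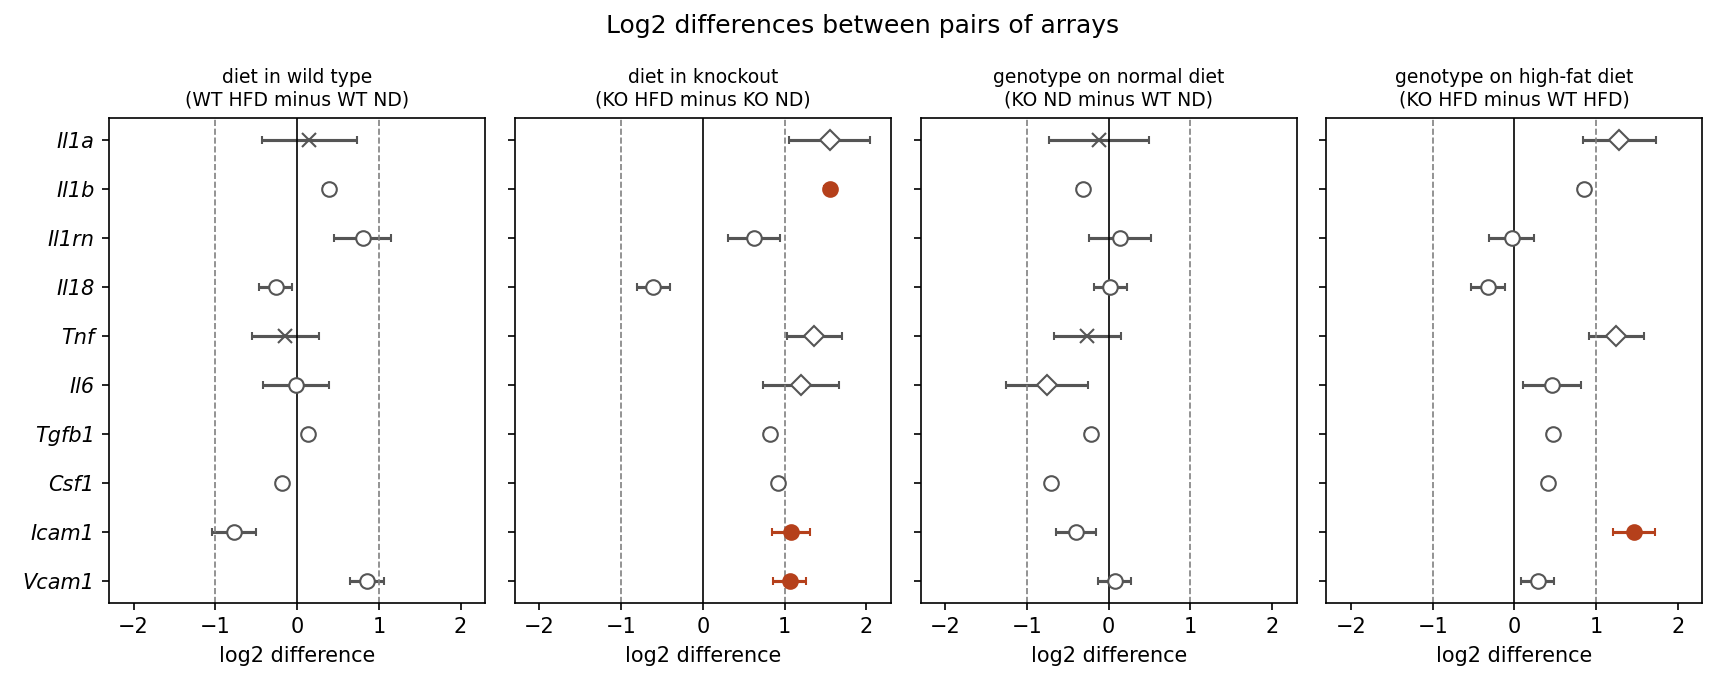
Log2 difference of each gene in the 4 comparisons of 2 arrays, with the scanner error as bars and dashed lines at 2-fold. Filled points met the 2-fold rule, circles were well above background on both arrays, diamonds on 1 and crosses on none. Il1b, Icam1 and Vcam1 are filled for diet in KO and Icam1 for genotype on HFD.

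The 2 diet differences share no array, so they were subtracted from each other. The diet effect was larger in KO than in WT by 1.85 ± 0.36 for Icam1, 1.17 ± 0.10 for Il1b, 1.11 ± 0.09 for Csf1 and 0.69 ± 0.10 for Tgfb1 on the log2 scale. It differed by 0.21 ± 0.29 for Vcam1, -0.18 ± 0.47 for Il1rn and -0.34 ± 0.29 for Il18, all within 2 scanner errors of 0. A difference of at least 1 was reached by 3 of these 7 genes, against 3.73% of 13550 genes measured on all arrays, and of -1 or less by 0, against 1.28%. Under median scaling the values of Il1b and Csf1 were 0.97 and 0.91.

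Of 14 receptors and binding proteins, 0 were called in any comparison, and their median for diet in KO was 0.19. With quantile normalization 1 was called for diet in KO. Il1r1, the signalling interleukin-1 receptor, differed for diet by 0.72 ± 0.20 in WT and 0.57 ± 0.20 in KO. Il18bp, the soluble antagonist of interleukin-18, differed by 0.09 ± 0.20 and 0.91 ± 0.20, and Csf1r, the receptor of Csf1, by 0.12 ± 0.20 and 0.85 ± 0.20. Of 11 genes of this list measured on both KO arrays, 9 were higher on HFD. Il1rap and Il6ra were lower there, by -0.57 ± 0.20 and -0.29 ± 0.20, and Tnfrsf1a was at 0.02 ± 0.07. In WT the diet difference of Il6ra was 0.67 ± 0.20. Il1r2, the decoy receptor, was not well above background on any array.

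On the leukocyte side of adhesion, 7 integrin genes have products that take part in binding Icam1 or Vcam1. Of these 3 rose and 0 fell for diet in KO, with a median of 0.82. Over all genes tested, here and for the lists below, 4.22% rose and 1.64% fell for diet in KO. In WT the diet shares were 1.78% and 2.31%. Between genotypes they were 1.40% and 2.50% on ND, and 2.51% and 1.59% on HFD. Itgax, which encodes the alpha X chain of macrophages and dendritic cells, read 77.0, 102, 59.7 and 438 in the order WT ND, WT HFD, KO ND and KO HFD. Itgb2, the shared beta 2 chain, rose by 1.73 ± 0.21 and Itga4, the alpha 4 chain that binds Vcam1, by 1.14 ± 0.23. Itgal, the alpha L chain that binds Icam1, was at 0.82 ± 0.22. With normexp 2 of the 7 were called. In WT 0 of 7 were called for diet, and between genotypes on HFD 2 rose, Itgax by 2.10 ± 0.22 and Itgb2 by 1.33 ± 0.21.

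Of 15 genes of cytokine processing and release, 13 could be tested for diet in KO and 2 rose, against 4.22% of all genes. These were Casp4, an inflammatory caspase, by 1.04 ± 0.20 and Thbs1, an activator of latent transforming growth factor beta, by 1.27 ± 0.35. Thbs1 also fell by 1.39 ± 0.35 between genotypes on ND, a call lost with normexp. Its signal was 77.2 and 80.2 for WT ND and WT HFD and 29.6 and 71.5 for KO ND and KO HFD, so the low array is KO ND. Casp1, which cleaves the precursors of interleukin-1 beta and interleukin-18, read 451, 463, 387 and 698 in the same order as Itgax above, and was not called. Nlrp3, the inflammasome sensor, read 30.8, 28.6, 29.3 and 32.0. Of the 2 calls for diet in KO, 1 was left under median scaling and 0 with normexp.

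Of 15 NF-kappaB subunit and feedback genes, 2 rose and 0 fell for diet in KO, against 4.22% and 1.64% of all genes. Their median was 0.36. Relb, a subunit of the noncanonical pathway, rose by 1.34 ± 0.21, with 249, 209, 167 and 423 on the 4 arrays in the order above. Cd83, a surface protein of activated antigen-presenting cells, rose by 1.24 ± 0.21. With normexp 0 of the 15 were called. Between genotypes on HFD Relb rose by 1.02 ± 0.21, a call lost under median, quantile and cyclic loess scaling. Nfkbia, the inhibitor that NF-kappaB itself induces, read 13190.2, 11262, 10813 and 10399.7, highest for WT ND. In WT 0 of these rose and 1 fell for diet, Rel by a bound, since it read 153 on the WT ND array and was not well above background on the other 3. Rel also fell between genotypes on ND, at least 6.49-fold, a comparison that shares the WT ND array.

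Of 16 other adhesion genes, 15 could be tested for diet in KO and 1 rose, close to the all-gene share of 4.22%. This was Selplg, the selectin ligand of leukocytes, at 2.14-fold, a call lost under median scaling and with normexp. Sele, which encodes E-selectin, was not well above background on any array, and Icam2, an endothelial relative of Icam1, read 1648, 1878, 1358 and 2217. Icam4 fell by 1.41 ± 0.24 for diet in WT and by 1.54 ± 0.24 between genotypes on ND, comparisons that share the WT ND array, and the first call was lost with normexp. Of 27 other cytokine genes, 26 had a probe. Of these 0 were called for diet in KO, where 12 were well above background on at least 1 of the arrays. For diet in WT 2 fell by bounds, Il5 at least 4.19-fold and Lif at least 2.72-fold, and of the 4 arrays both passed background on WT ND alone. With normexp 1 of these 2 was called. Between genotypes on ND, which shares the WT ND array, Il5 and Lif also fell by bounds, at least 4.40-fold and 2.86-fold. Tgfb2, a relative of Tgfb1, rose by 1.11 ± 0.33 between genotypes on HFD, a call lost with cyclic loess and with normexp.

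**Figure D4:**
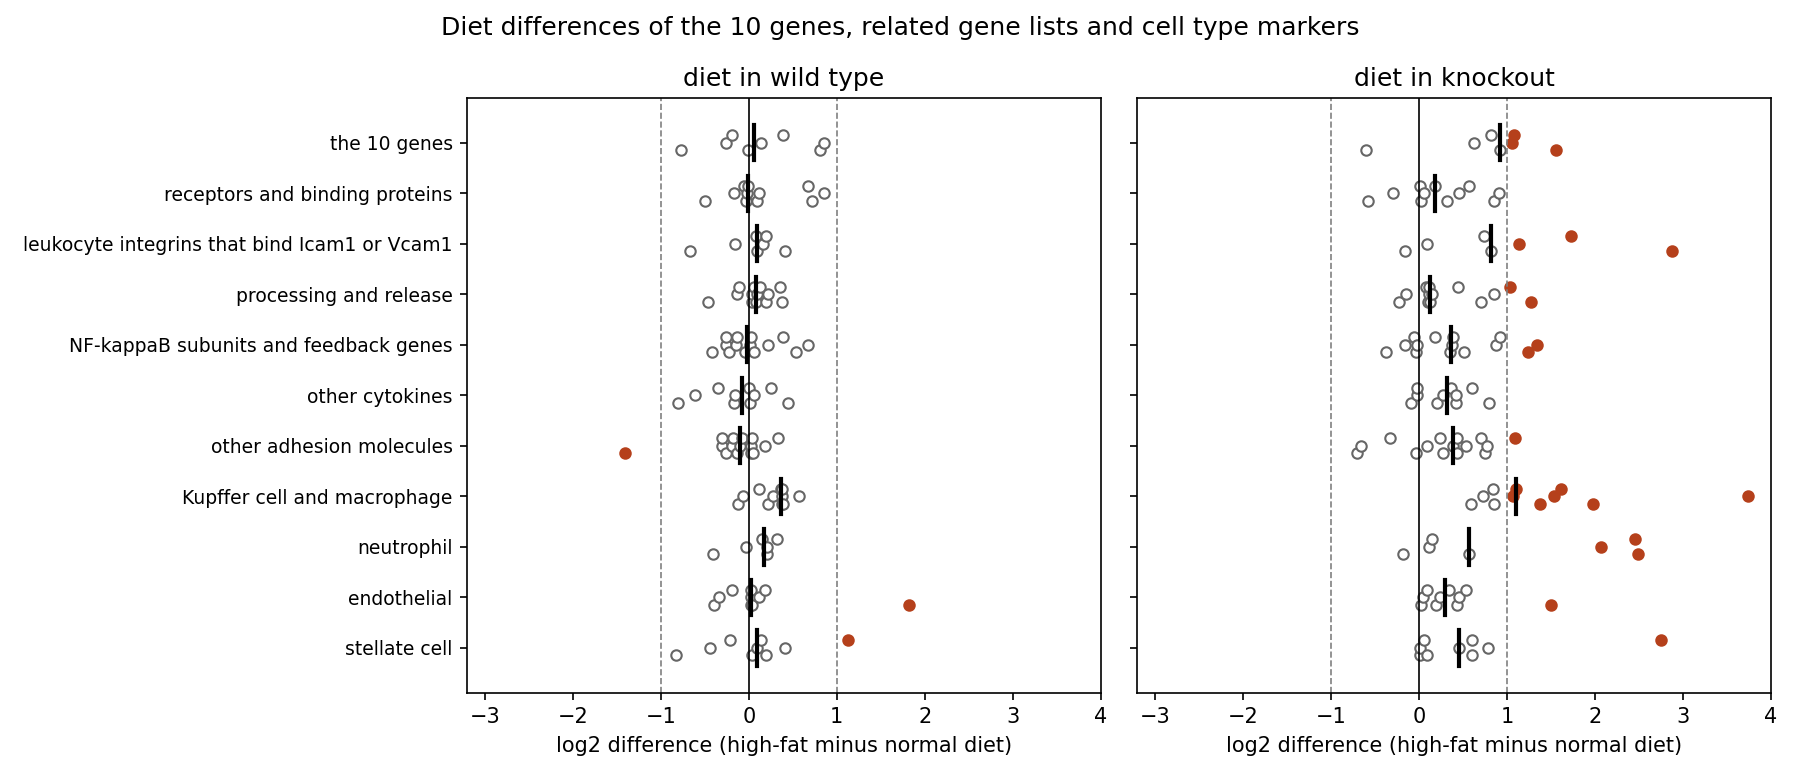
Log2 diet differences in WT (left) and the knockout (right) for the 10 genes, 6 related gene lists and 4 lists of cell type markers, for genes well above background on both arrays. Filled points met the 2-fold rule, bars are medians and dashed lines mark 2-fold. In KO, the medians of the 10 genes, 0.92, the integrins, 0.82, and the macrophage markers, 1.10, lie farthest to the right.

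Markers of macrophages, which make several of these products, were highest on the same array. The 11 macrophage markers with a probe were well above background on all 4 arrays, and their summed scaled signal was 46761, 56428, 39117 and 101007 in the order WT ND, WT HFD, KO ND and KO HFD. For diet in KO 7 of the 11 rose and 0 fell (median 1.10), against 4.22% and 1.64% of all genes. In WT 0 were called, with a median of 0.36. Marco, a scavenger receptor, rose by 3.74 ± 0.20, Adgre1, the macrophage antigen F4/80, by 1.98 ± 0.20 and C1qa, a complement subunit, by 1.38 ± 0.20. Between genotypes on HFD 3 of the 11 rose. Under median scaling these counts were 5 and 2. The part of these markers in the values of Il1b, Csf1 and Icam1 was not tested.

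The 9 neutrophil markers with a probe summed to 65265, 72220.1, 61737 and 71804, most of it the signal of Csf3r, while Cxcr2, Mpo and Ltf were not well above background on some arrays. For diet in KO 4 of them rose, against 4.22% of all genes, and Cxcr2 fell by a bound, against 1.64%. The 4 were S100a8 by 2.49 ± 0.21, S100a9 by 2.45 ± 0.20, Retnlg by 2.07 ± 0.34 and Ltf by a bound. With normexp 2 of these rises were called. The 10 endothelial markers, which bear on Vcam1 and Icam1, summed to 48231, 51068, 49106 and 55671, all well above background. Of these, Lyve1, a hyaluronan receptor of sinusoidal endothelium, rose with HFD in both genotypes, from 233 to 825 in WT and from 292 to 823 in KO. The 9 stellate cell markers summed to 55876, 61464, 48857 and 68046, most of it the signal of Dcn. For diet 1 of them rose in each genotype, Col1a1, 2.19-fold in WT and 6.71-fold in KO, though in WT not with normexp. The 10 lymphocyte markers summed to 4454, 3982, 3686 and 3374, with Ncr1, Cd8a and Klrb1c not well above background on any array. Of the lists for bile duct and carried-over tissue, the first summed to 554, 348, 334 and 327 and the second to 16106, 43857, 19275 and 19344, the high value being mostly Hba-a1, a haemoglobin gene. Pnlip, Adipoq, Myh4 and Ckm were not well above background on any array. For diet in KO 2 of the other 3 carried-over markers rose. Cfd, the adipocyte protease adipsin, read 488, 3416, 381 and 4605 and rose with HFD in both genotypes. Cela1, a pancreatic elastase, read 103, 57.7, 67.0 and 227, and rose for diet in KO and between genotypes on HFD. The 10 hepatocyte markers on the KO HFD array summed to 0.776 of their sum on the WT ND array. Of these, Cps1 fell for diet in KO by 1.10 ± 0.20. Between genotypes on HFD Cps1 fell by 1.01 ± 0.20 and Tat by 1.07 ± 0.20. With quantile normalization 0 of the 10 were called in these comparisons. The part of these cell types in the results was not tested.

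Genes with the most similar 4-array profile were sought for the 3 genes that were well above background everywhere and spanned at least 1 on the log2 scale, among 12953 others. Likeness was the root mean square difference of 4 centred log2 values. For Il1b they were Ly86 at 0.03, Tyrobp at 0.03 and Cd5l at 0.04. Those of Icam1 were less close, Arhgap44 at 0.09, Arl5c at 0.09 and Aldh3b1 at 0.09. For Vcam1 they were Clca3a2 at 0.04, Ube2c at 0.05 and Mest at 0.07. With 4 arrays, many genes are bound to lie near any profile.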

How the data were processed

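Liver RNA of 4 samples, 1 per group, was measured on 1-colour (Cy3) Agilent arrays. Per the file headers, the deposited files hold the spot intensity of Agilent's Feature Extraction 11.5.1.1, from which the processed signal, corrected for background by the scanner software, and its error were used. The design text names GeneSpring GX for extraction; how it scaled values is not given in the sources used here. Intensity is also what the deposited value table holds, and it lay within 1% of the mean processed signal for 99.8% of probes on each array, with column medians of 79.9, 75.9, 72.4 and 89.2; it is linear and uncentred, and direction does not apply.

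Control and outlier-flagged spots were left out, unless all spots of a probe were flagged, and log2 processed signals were averaged per probe. Each array's 75th percentile was subtracted. Probes were named by RefSeq accession (27508 of 39429), through a table on assembly GRCm38.p6. The brightest probe stood for a gene. A probe passed background where more than 50% of its spots did. Simulated data were used to test the calls, and no result of that is given here. The genes and lists were chosen with earlier results of these data known. Named genes are all 10 genes and up to 4 called members of each list per comparison. Some, not all, of the receptors and enzymes of the 10 and the 3 most similar profiles are also named. Sele, Icam2, Nfkbia, Nlrp3, Il1rap, Il6ra, Tnfrsf1a and the marker genes were named after their values were seen. The result of 1 gene list is not reported here. Alternatives were median, quantile and cyclic loess scaling, normexp with an offset of 50 on the median spot signal, the mean of all probes, the value table, 1.5-fold, no bounds, and a flag on every spot, which was chosen after seeing the data. Tools were Python 3.11.15, pandas 2.3.3, numpy 2.4.6, matplotlib 3.10.9, R 4.3.3 and limma 3.58.1.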

Additional observations from a re-analysis of the deposited data

Results flagged for a closer look

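Icam1 and Csf1 had diet differences of opposite sign in the 2 genotypes, each past 2 scanner errors. For Icam1 the diet difference was -0.77 in wild type and 1.08 in the knockout, a difference of 1.85 on the log2 scale. For Csf1 it was -0.19 and 0.92, a difference of 1.11. Under median scaling the wild-type value of Csf1 was -0.10, within 2 scanner errors of 0, so the opposite sign does not hold there beyond the error. With 1 array per group the difference was not tested against any spread between animals. On the other Csf1 probes the wild-type value was -0.68 ± 0.21 and -0.04 ± 0.22, so the size of the wild-type difference depended on the probe.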

How the results depend on the processing

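No paired analysis was possible because each group has 1 array, and for the same reason no replicate could be left out. For diet in the knockout, 3 of the 10 genes were higher, against 1 under median scaling and 8 with the 1.5-fold rule. Of those 8, Il1a and Il6 were called by bounds. The 1.5-fold rule also gave 1 lower in place of 0. Quantile, cyclic loess and normexp each gave 2 higher. For genotype on high-fat diet, 1 was higher, against 0 with normexp and 3 at 1.5-fold, Il1a among them by a bound. For diet in wild type, 0 became 2 higher and 1 lower at 1.5-fold, and for genotype on normal diet 0 became 1 lower. The value table, the mean of all probes, no bounds and a flag on every spot changed none of the 2-fold counts. No called value changed sign under any alternative. Median scaling moved the median of all genes by -0.11 for diet in the knockout and by 0.14 for genotype on normal diet. Of 43 single values, 21 moved by more than the scanner error with normexp, 12 with median scaling and 0 with the value table. Normexp with its offset compresses differences of dim probes by construction, and Il1a, Il6 and Tnf lie there. Signals near background set what can be said of these genes, and the scanner error is no measure of the spread between animals.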
